A study of Mus musculus with 8 samples.

Results

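Glutathione is made and recycled, and protein thiols are kept reduced, by a small group of genes that are classic targets of the transcription factor NRF2. This group was followed here across the cell classes of MC38 tumors. Its 10 members, of 24787 genes listed in the count tables, were chosen by name, with earlier results of these data known: *Gclm*, *Gclc*, *Gsr*, *Srxn1*, *Slc7a11*, *Txnrd1*, *Nqo1*, *Sod2*, *Prdx1* and *Txn1*. Most encode enzymes, while *Slc7a11* encodes a membrane transporter and *Txn1* a small redox protein. MC38 is a mouse colon carcinoma line, and per the study's methods its cells were implanted under the skin of female C57BL/6J mice that were 8 weeks old. Each of 8 mice received either saline (3 mice), free R848 (3 mice) or the medium-release R848 bottlebrush prodrug (medium R848-BPD, 2 mice), and the tumors were taken after 24 h. R848 (resiquimod) is a small agonist of TLR7/8, endosomal sensors of myeloid cells, and in the prodrug it is joined to a polyethylene glycol polymer by an ester linker that sets its release. The labels give neither the doses of these mice nor the linker behind the word medium. All tumors were digested, CD45+ (leukocyte) and CD45- cells were loaded on Seq-Well arrays at an excess of CD45+ cells, and RNA molecules were counted per cell by unique molecular identifiers (UMIs).

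NRF2 is held at low levels by KEAP1 in resting cells and accumulates when KEAP1 is modified by oxidants or electrophiles. It then binds antioxidant response elements and raises the genes for glutathione synthesis, NADPH-dependent reductases and thiol peroxidases. In macrophages these genes are also known to respond to inflammatory signals, and *Sod2* is a textbook target of NF-kB.

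The letters of the antioxidant response element core, TGACNNNGC (GCNNNGTCA on the other strand), were searched in the 250 bases before each RefSeq gene start (GRCm38.p6). Windows were at hand for 8 members, not for *Gclc* and *Gsr*. The core was found in 3338 of 32851 windows of all genes (10.2%) and in those of 3 members, *Gclm*, *Prdx1* and *Txnrd1* (for the last, at 1 of its 3 starts). The AP-1 letters TGANTCA, which read the same on both strands, were found in 2217 windows (6.75%), among them those of *Srxn1* and *Prdx1* with 2 matches each, and 1 of the *Prdx1* matches lies inside the core match shown. For each member with a match, 1 stretch is shown, with 25 bases on each side and the match in capitals, on the plus strand. Other members with a window held neither match. That of *Gclm* is chr3:122245398-122245456, with the match 134 to 126 bases before the start. That of *Prdx1* is chr4:116685441-116685499 (133 to 125 bases before), that of *Txnrd1* chr10:82859089-82859147 (92 to 84 bases before), and that of *Srxn1*, for the AP-1 match nearer to its start, chr2:152105454-152105510 (45 to 39 bases before). None of them overlaps an exon of GENCODE vM21. A match of letters describes the window and does not show that a factor bound there.
Gclm: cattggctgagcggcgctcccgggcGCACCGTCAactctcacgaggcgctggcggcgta
Prdx1: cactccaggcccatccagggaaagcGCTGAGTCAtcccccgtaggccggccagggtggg
Txnrd1: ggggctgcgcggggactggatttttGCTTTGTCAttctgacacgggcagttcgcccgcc
Srxn1: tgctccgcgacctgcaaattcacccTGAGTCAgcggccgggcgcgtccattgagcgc

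The tables held 10791 barcodes, of which 9886 passed as cells, with 5867590 to 12422614 UMIs per tumor and a median of 3247 to 6928 UMIs per cell. Of 23 barcode sequences listed in more than 1 tumor, 11 were kept as cells in more than 1. Single cells were gated on marker genes into monocyte/macrophage-like (5194 cells), MC38-like (1256), NK-like (928), DC-like (382) and T-like (377) classes, and their UMIs were summed per tumor. The marker genes of the monocyte/macrophage-like class, such as *C1qa*, *Csf1r* and *Fcgr1*, averaged 2928, 871 and 1202 counts per 1000000 (CPM) in it against 23.9, 16.4 and 19.9 CPM in the MC38-like class. The MC38-like cells were at 0 CPM for the keratin gene *Krt8* and at 0.282 CPM for *Krt18*, and were identified by *Mtap*, *Rhox5* and *Col6a2* (800, 897 and 768 CPM). The labels do not give the sequencing runs, so that a run shared by a treatment group cannot be told apart from the treatment.

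Among monocyte/macrophage-like cells, 9 members passed the filter on low counts, and 7 of these were higher under medium R848-BPD than under saline (edgeR's quasi-likelihood test, Benjamini-Hochberg adjusted p at most 0.05 over 10618 genes), against 3.59% of all genes tested. Under medium R848-BPD, *Gclm* and *Sod2* stood at more than 4 times their saline level, *Gclc* and *Gsr* at nearly 3 times, and *Txn1* below 2 times. Compared with free R848, 4 members were higher, *Gclm*, *Gclc*, *Sod2* and *Prdx1*, against 1.01% of all genes. None was called lower in either contrast. Between free R848 and saline, no member was called, and 1 gene of 10618 was (0.00942%). At an unadjusted p of at most 0.05 this last contrast held 1 member (*Gclm*) against 11.7% of all genes, and DESeq2 called 49 genes and 0 members. All 9 members tested lay higher in both medium R848-BPD tumors than in each saline tumor and each free R848 tumor, which held for 20.3% and 17.5% of all genes. The median log2 fold change of the 9 members was 1.44 against saline and 1.53 against free R848, where that of all genes was -0.01 in each. The 2 treated contrasts share the medium R848-BPD tumors.

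**Figure D1:**
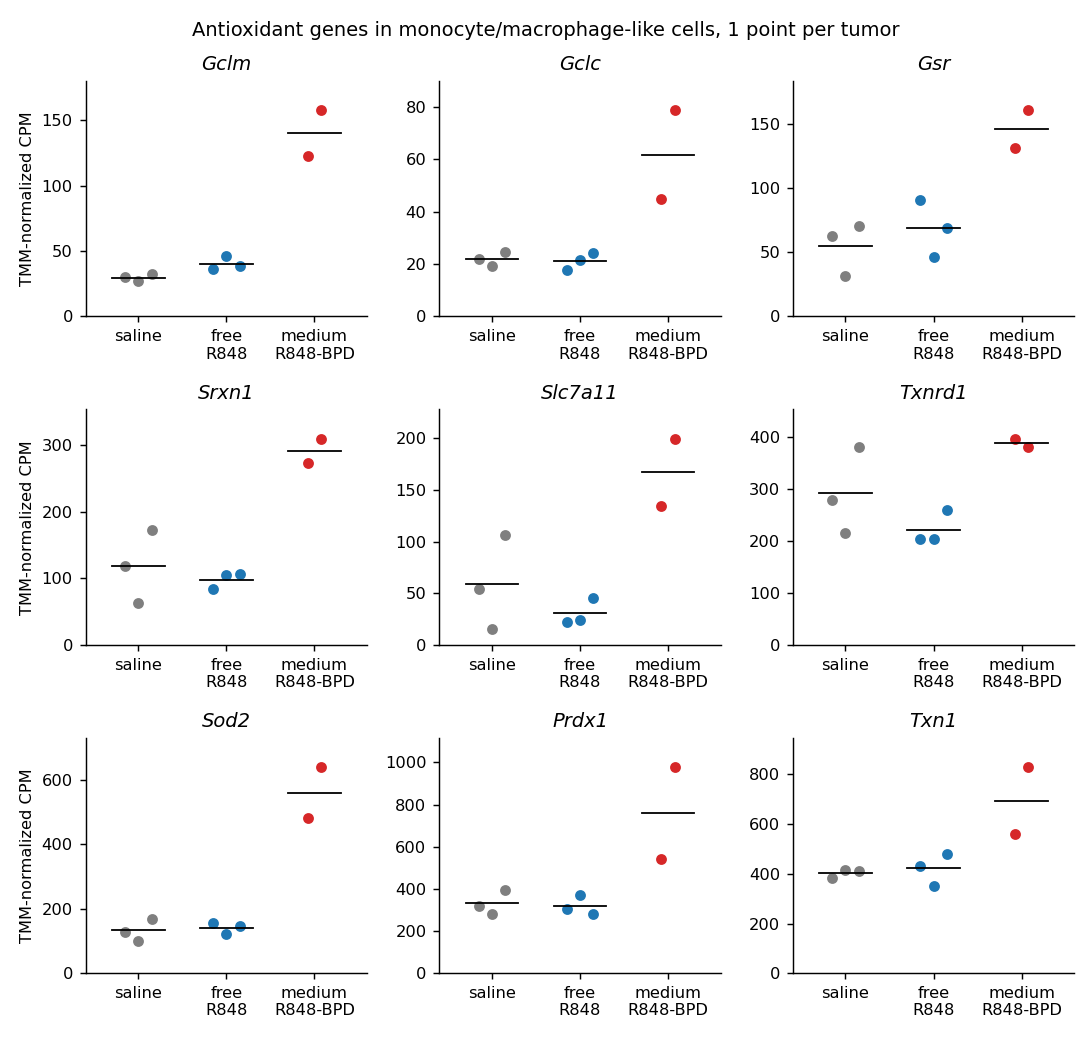
Level of the 9 members tested in monocyte/macrophage-like cells (y axis, CPM after TMM scaling, from 0) by treatment (x axis), with 1 point per tumor and the group mean as a line. For *Gclm* the 2 medium R848-BPD tumors (123 and 158 CPM) lie above the 6 others (26.8 to 46.3 CPM), while for *Txnrd1* saline tumor 3 (380.1 CPM) lies just below the lower of them (381 CPM).

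The modifier and catalytic subunits of glutamate-cysteine ligase, the rate-limiting enzyme of glutathione synthesis, are encoded by *Gclm* (chr3:122245557-122270732, plus strand; all gene positions are GRCm38, GENCODE vM21) and *Gclc* (chr9:77754535-77794485, plus strand). *Gclm* was at 29.9, 26.8 and 32.5 CPM in the saline tumors, 36.6, 46.3 and 38.2 CPM under free R848, and 123 and 158 CPM under medium R848-BPD. The 3 groups did not overlap. Its log2 fold change was 2.24 ± 0.16 (SE) against saline (edgeR adjusted p = 0.000393) and 1.79 ± 0.16 against free R848 (adjusted p = 0.00154). Between free R848 and saline it was 0.46 ± 0.15, which did not pass (adjusted p = 0.306). *Gclm* was called in all 18 alternative analyses of each of the 2 medium R848-BPD contrasts. *Gclc* was at 22.0, 19.3 and 24.7 CPM in saline, 17.7, 21.5 and 24.3 CPM under free R848, and 44.9 and 78.6 CPM under medium R848-BPD. Saline and free R848 tumors were interleaved, and the medium R848-BPD tumors lay above both and apart from each other. The log2 fold change of *Gclc* was 1.48 ± 0.24 against saline (adjusted p = 0.0109) and 1.53 ± 0.24 against free R848 (adjusted p = 0.0253). It was called in 15 and 12 of the 18 alternatives.

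Cystine, the precursor of the cysteine in glutathione, enters the cell through the antiporter subunit encoded by *Slc7a11* (chr3:49892526-50443614, minus strand). Its levels were 54.2, 15.5 and 107 CPM in saline, 22.7, 23.7 and 45.2 CPM under free R848, and 135 and 199 CPM under medium R848-BPD. The medium R848-BPD tumors were the highest, and the saline tumors spanned a wide range. With that spread the log2 fold change of 1.56 ± 0.60 against saline did not pass (adjusted p = 0.152; 95% interval 0.20 to 2.92), nor did 2.48 ± 0.62 against free R848 (adjusted p = 0.0979). Cells with neutrophil markers carried far more *Slc7a11*. The 31 neutrophil-like cells of free R848 tumor 3 were at 1814 CPM, and the 13 and 15 such cells of the medium R848-BPD tumors at 2557 and 569 CPM. The 7 neutrophil markers summed to 35.4 to 50.7 CPM in the monocyte/macrophage-like sums of saline tumors, 65.3 to 163 CPM under free R848 and 88.4 to 190 CPM under medium R848-BPD, against 20731 to 39883 CPM in the neutrophil-like sums. Their part in the *Slc7a11* level was not tested.

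Glutathione reductase, which returns oxidized glutathione to its reduced form with NADPH, is encoded by *Gsr* (chr8:33652523-33698163, plus strand). Its levels were 62.8, 31.4 and 70.3 CPM in saline, 91.1, 46.3 and 69.1 CPM under free R848, and 131 and 161 CPM under medium R848-BPD. The last 2 tumors lay above all others. The log2 fold change was 1.44 ± 0.34 against saline (adjusted p = 0.0408) and 1.08 ± 0.34 against free R848, which did not pass (adjusted p = 0.176). The call against saline held in 10 of 18 alternatives, whose log2 fold changes ran from 0.01 in monocyte-like cells to 2.54 in macrophage-like cells.

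Thioredoxin, encoded by *Txn1* (chr4:57943373-57956411, minus strand), reduces protein disulfides and is itself recycled by thioredoxin reductase, encoded by *Txnrd1* (chr10:82833951-82897712, plus strand). *Txn1* was at 384, 413 and 411 CPM in saline, 431, 353 and 480.0 CPM under free R848, and 559.6 and 827 CPM under medium R848-BPD. It rose by 0.78 ± 0.19 on the log2 scale against saline (adjusted p = 0.0435), and its difference of 0.72 ± 0.19 from free R848 did not pass (adjusted p = 0.118). The call against saline held in 10 of 18 alternatives. *Txnrd1* was at 279, 215 and 380.1 CPM in saline, 203, 203 and 259 CPM under free R848, and 396 and 381 CPM under medium R848-BPD. Saline tumor 3 lay just below the lower medium R848-BPD tumor. *Txnrd1* passed in neither contrast, with a log2 fold change of 0.42 (95% interval -0.09 to 0.92) against saline and 0.81 (0.31 to 1.31) against free R848.

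Hydrogen peroxide is reduced by peroxiredoxin 1, the product of *Prdx1* (chr4:116685544-116700822, plus strand), and hyperoxidized peroxiredoxins are repaired by sulfiredoxin, the product of *Srxn1* (chr2:152105516-152111376, plus strand). *Prdx1* was at 320.4, 279.5 and 397 CPM in saline, 306, 372 and 279.6 CPM under free R848, and 540.4 and 976 CPM under medium R848-BPD. Here the 2 medium R848-BPD tumors differed from each other by more than all 6 others did. The log2 fold change of *Prdx1* was 1.19 ± 0.25 against saline (adjusted p = 0.0289) and 1.25 ± 0.25 against free R848 (adjusted p = 0.0493). These calls held in 12 and 9 of the 18 alternatives, and the latter was lost, among others, when cells with a barcode kept in another tumor were left out. *Srxn1* was at 119, 62.6 and 173 CPM in saline, 84.1, 105 and 106 CPM under free R848, and 273 and 309 CPM under medium R848-BPD. It was clear of the other tumors in both, with 1.31 ± 0.33 against saline (adjusted p = 0.0463) and 1.57 ± 0.33 against free R848 (adjusted p = 0.0578, which did not pass). The call against saline held in 7 of 18 alternatives.

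Superoxide is converted to peroxide in mitochondria by the manganese superoxide dismutase encoded by *Sod2* (chr17:13006846-13040063, plus strand). Its levels were 129, 101 and 169 CPM in saline, 156, 122 and 148 CPM under free R848, and 481 and 638 CPM under medium R848-BPD. Saline and free R848 tumors overlapped throughout. *Sod2* rose by 2.07 ± 0.22 on the log2 scale against saline (adjusted p = 0.0022) and by 1.98 ± 0.22 against free R848 (adjusted p = 0.00558), and was called in 18 and 17 of the 18 alternatives. The quinone reductase gene *Nqo1* (chr8:107388225-107403206, minus strand), a standard NRF2 reporter, was hardly seen in this class, with 35 UMIs over all tumors and 0 to 2.06 CPM, and could not be tested.

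The differences in level were also seen as shares of cells with at least 1 UMI after each cell was thinned to 1000 UMIs. *Gclm* was found in 2.53% ± 0.50 (SD, n = 3) of saline monocyte/macrophage-like cells, 3.38% ± 0.97 (n = 3) of those under free R848 and 10.04% ± 1.16 (n = 2) under medium R848-BPD (unthinned 12.1%, 14.7% and 38.1%). *Sod2* was found in 11.8% ± 2.51, 11.9% ± 0.75 and 38.6% ± 4.51 (unthinned 44.4%, 47.4% and 82.0%). *Slc7a11* was found in 4.82% ± 4.09, 2.79% ± 0.59 and 13.3% ± 3.85. In NK-like cells of the same tumors, group means of the share with *Slc7a11* were 0% to 0.38%, with *Gclm* 1.64% to 1.86% and with *Sod2* 4.64% to 6.03%.

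The calls rested on few tumors. Leaving out medium R848-BPD tumor 2 left 1 tumor in that group, and fewer members were then called against saline and against free R848. Leaving out saline tumor 2, which is not part of the comparison with free R848 but shares its estimate of the spread, raised the members called there from 4 to 8. The number of all genes called also varied as single tumors were left out. Summed marker levels in these cells also differed between tumors. The osteoclast list was at 125 to 446 CPM in saline, 548 to 596 CPM under free R848 and 887 to 1177 CPM under medium R848-BPD, with no overlap. Most of this sum was *Acp5*, which averaged 531 CPM over all tumors. *Ctsk*, *Atp6v0d2*, *Ocstamp* and *Dcstamp* averaged 28.4, 15.3, 5.55 and 2.29 CPM. The monocyte list was lower under medium R848-BPD (1627 to 1993 CPM) than under free R848 (3258 to 4356 CPM) but inside the saline range (1094 to 3854 CPM). The NK list was at 13.6 to 61.0 CPM in saline, 4.25 to 44.2 CPM under free R848 and 46.9 and 146 CPM under medium R848-BPD, above each free R848 tumor. The fibroblast list was at 6.99 to 12.4 CPM, 8.67 to 13.5 CPM and 20.2 to 23.8 CPM in the same order of groups, with 2 or more of its 5 markers seen in each tumor. The median mitochondrial share of all cells was 3.21% and 3.24% in the medium R848-BPD tumors and 3.62% to 5.44% in the 6 others. Their part in the members' levels was not tested, beyond the split that follows.

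The class was split by monocyte markers (*Ly6c2*, *Ccr2*, *Plac8* and others) into 3917 macrophage-like and 1277 monocyte-like cells, a split added after the data were seen. *Gsr* separated them. In macrophage-like cells it was at 23.9 to 26.9 CPM in saline, 36.4 to 46.1 CPM under free R848 and 127 to 147 CPM under medium R848-BPD, with no overlap. In monocyte-like cells it was at 141 to 253 CPM, 107 to 235 CPM and 185 to 186 CPM, with the medium R848-BPD tumors inside the range of the others. The term for the difference between the responses of the 2 kinds of cell, fitted over tumors, was 2.52 ± 0.26 (SE, log2) for medium R848-BPD against saline (edgeR adjusted p = 8.91e-06, 1.74% of 9701 genes called) and 1.49 ± 0.25 against free R848 (adjusted p = 0.00564, 0.495% called). None of the other 8 members was called in this term.

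**Figure D2:**
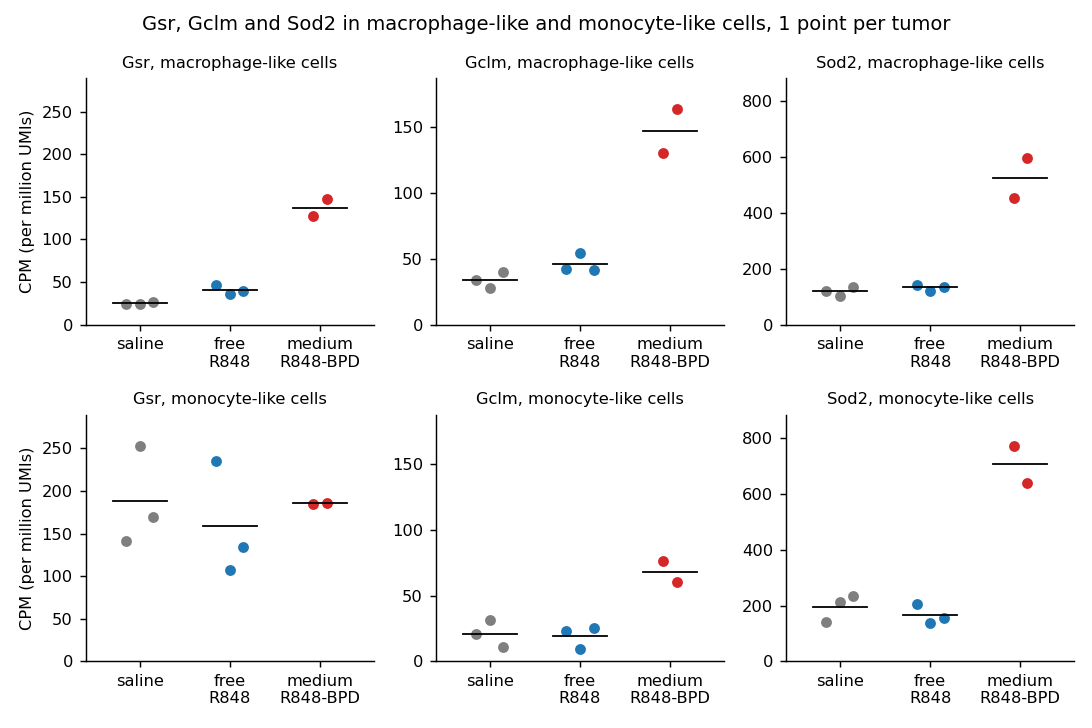
*Gsr*, *Gclm* and *Sod2* in the macrophage-like (top) and monocyte-like cells (bottom), as CPM on the y axis from 0 and treatment on the x axis, with 1 point per tumor and the group mean as a line. *Gsr* under medium R848-BPD reaches 127 to 147 CPM in macrophage-like cells from 23.9 to 26.9 CPM in saline, and 185 to 186 CPM in monocyte-like cells, within the saline range of 141 to 253 CPM.

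In separate fits of the 2 kinds of cell, 9 members were tested in each. Against saline, 7 were called higher in macrophage-like cells (4.71% of all genes), all tested members but *Slc7a11* and *Txnrd1*, and 5 in monocyte-like cells (4.23% of all genes), namely *Gclm*, *Slc7a11*, *Sod2*, *Prdx1* and *Txn1*. Against free R848, 5 were called higher in macrophage-like cells (0.937% of all genes), namely *Gclm*, *Gclc*, *Gsr*, *Srxn1* and *Sod2*, and 6 in monocyte-like cells (2.35% of all genes), the 5 named for saline and *Srxn1*. *Gclm* and *Sod2* were thus called in both kinds of cell and both contrasts. *Gclm* averaged 33.9, 46.1 and 147 CPM in macrophage-like cells of saline, free R848 and medium R848-BPD tumors, and 21.1, 19.1 and 68.3 CPM in monocyte-like cells. *Sod2* averaged 120, 134 and 527 CPM in the former and 196, 167 and 706 CPM in the latter. *Slc7a11* was called in monocyte-like cells alone, at 84.1, 48.3 and 267 CPM, and was at 48.9, 23.9 and 148 CPM in macrophage-like cells. The term for its difference between them was 0.02 against saline and 0.24 against free R848 (adjusted p = 0.988 and 0.871), so the calls do not show that the responses differed.

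In the MC38-like cells, 4 of 10 members were called higher under medium R848-BPD than under saline, against 1.69% of all genes tested, namely *Gclm*, *Srxn1*, *Slc7a11* and *Txnrd1*. Against free R848 only *Slc7a11* was called (1.5% of all genes), and between free R848 and saline no member was called (0.307%). *Slc7a11* was at 37.8, 59.6 and 26.6 CPM in saline, 33.7, 44.9 and 41.2 CPM under free R848, and 76.2 and 91.8 CPM under medium R848-BPD, with the last 2 above all others. It rose by 0.89 ± 0.22 on the log2 scale against saline (adjusted p = 0.0295) and by 1.11 ± 0.21 against free R848 (adjusted p = 0.0144). *Txnrd1* was at 252, 314 and 261 CPM, 257, 294 and 337 CPM, and 379 and 427 CPM, a log2 change of 0.54 ± 0.13 against saline (adjusted p = 0.0299). *Srxn1* was at 62.3 to 85.2 CPM in saline and 126 and 95.4 CPM under medium R848-BPD (log2 change 0.66 ± 0.16, adjusted p = 0.0299). *Gclm* was at 118, 92.6 and 94.1 CPM in saline, 116, 128 and 121 CPM under free R848, and 140.2 and 155 CPM under medium R848-BPD (0.54 ± 0.13 against saline, adjusted p = 0.0285). *Gsr*, *Gclc*, *Prdx1*, *Sod2* and *Txn1* did not pass, with log2 changes against saline from 0.08 to 0.31. *Nqo1* was detected here, at 7.1 to 14.5 CPM in saline, 8.08 to 13.7 CPM under free R848 and 5.67 to 8.35 CPM under medium R848-BPD (182 UMIs in all). All the MC38-like calls were lost when the classes were taken from clusters. They also depended on medium R848-BPD tumor 2, without which that group holds 1 tumor. Over 16 alternatives the log2 changes against saline ran from 0.73 to 1.31 for *Slc7a11* and 0.45 to 0.66 for *Txnrd1*. For *Srxn1* they ran from 0.48 to 0.88 and for *Gclm* from 0.44 to 0.68.

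**Figure D3:**
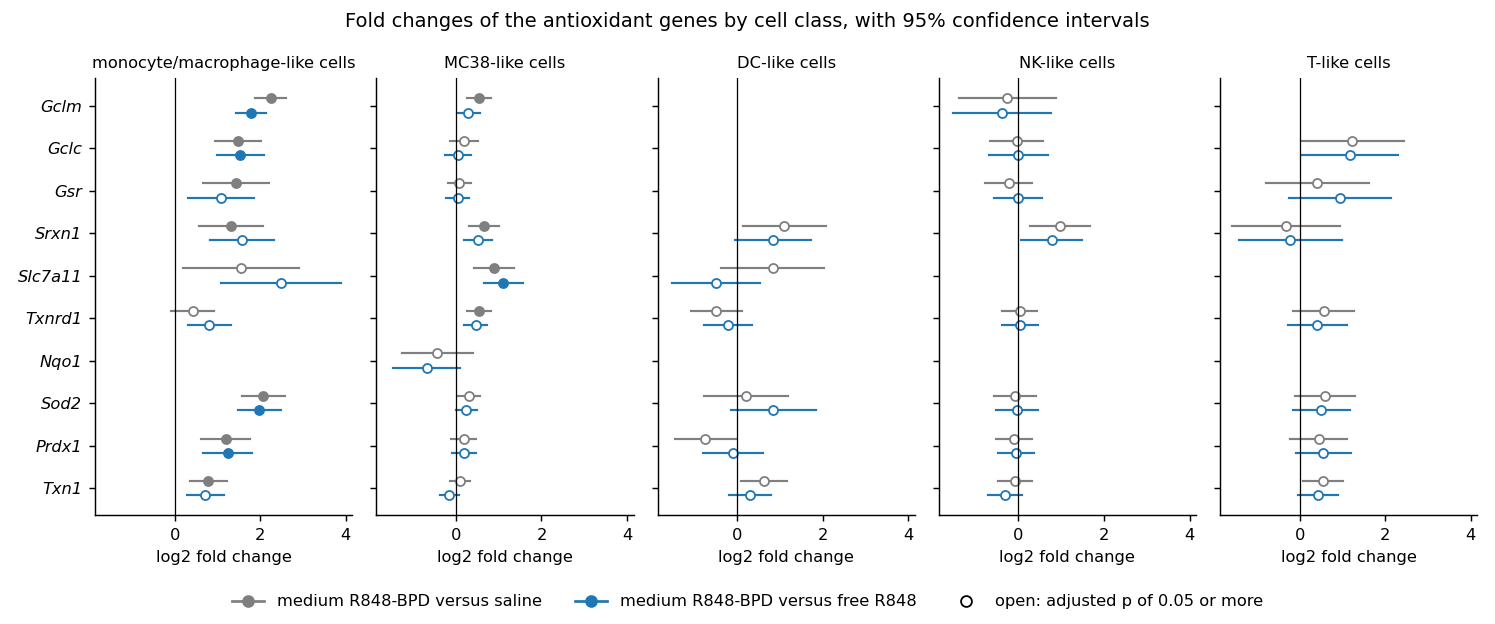
Log2 fold change of each tested member (x axis) in the 5 cell classes for medium R848-BPD against saline (grey) and against free R848 (blue), with 95% intervals from edgeR as bars and filled points where the adjusted p is under 0.05. In monocyte/macrophage-like cells *Gclm* and *Sod2* lie at 2.24 and 2.07 against saline, and in MC38-like cells at 0.54 and 0.31.

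In the lymphoid and dendritic classes no member was called in any of the 3 contrasts, of 6 members tested in DC-like, 8 in NK-like and 7 in T-like cells. The share of all genes called, in the order free R848 against saline, medium R848-BPD against saline and medium R848-BPD against free R848, was 6.98%, 19.4% and 0.349% in DC-like cells. It was 0%, 0.776% and 0.43% in NK-like cells, where the first contrast held 350 genes at an unadjusted p of at most 0.05 and 0 by DESeq2. In T-like cells it was 0.0949%, 0.0569% and 0.0759%. Saline tumor 2, with 8 DC-like cells, was left out of the DC-like fits. The highest log2 fold changes against saline under medium R848-BPD were 1.10 for *Srxn1* in DC-like cells (95% interval 0.14 to 2.07), 0.96 for *Srxn1* in NK-like cells (0.26 to 1.66) and 1.23 for *Gclc* in T-like cells (0.02 to 2.45). These 3 intervals reach changes as high as those called for the same genes in the monocyte/macrophage-like cells, so that a response of that size was not excluded there. For *Sod2* in NK-like cells the interval against saline, -0.56 to 0.40, lay wholly below the change of 2.07 in monocyte/macrophage-like cells. In simulated sums of the same depth, a log2 change of 1 was recovered for 43.3% of changed genes in monocyte/macrophage-like cells, 68.8% in MC38-like, 34.0% in DC-like, 44.3% in NK-like and 17.2% in T-like cells.

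*Gclm* was at 5 to 32.4 CPM in DC-like, 8.13 to 30.3 CPM in NK-like and 8.98 to 67.5 CPM in T-like cells over all tumors. These ranges rest on only 2 to 6, 6 to 22 and 1 to 15 UMIs per tumor, so counting error is a large part of them. *Slc7a11* was at 0 to 4.33 CPM in NK-like cells and 0 to 45.0 CPM in T-like cells (0 to 4 UMIs per tumor in each), against 32.4 to 155 CPM in DC-like cells (5 to 28 UMIs). *Sod2* stayed between 54.9 and 75.6 CPM in NK-like cells and between 23.5 and 77.4 CPM in DC-like cells. Where a class holds few cells, a lower share of expressing cells and less RNA per cell cannot be told apart in the sum.

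Whether the response to medium R848-BPD over free R848 differed between classes was tested by a class-by-treatment term with the tumor as a block. Against MC38-like cells, the response of monocyte/macrophage-like cells was greater by 1.51 ± 0.18 (SE, log2) for *Gclm* (edgeR adjusted p = 0.00156), 1.74 ± 0.21 for *Sod2* (adjusted p = 0.00166) and 1.53 ± 0.25 for *Gclc* (adjusted p = 0.0138), with 0.749% of 11608 genes called. The other members did not pass this term. Against DC-like cells it was greater for *Slc7a11* (2.72 ± 0.44, adjusted p = 8.73e-07) and *Gclc* (2.13 ± 0.60, adjusted p = 0.0362), with 1.28% of genes called. The DC-like sums of free R848 tumors held only 6 to 26 UMIs of *Slc7a11* and 3 to 17 UMIs of *Gclc*. *Gclc* did not pass the filter on low counts in DC-like cells alone. Both p-values rest on a spread shared over genes, with little weight on each gene's own spread between tumors. Against NK-like cells the response was greater for *Sod2* alone (1.92 ± 0.28, adjusted p = 0.00938, 0.249% of genes). Against T-like cells no member passed (0.411% of genes), where the term for *Srxn1* was 1.93 ± 0.49 (adjusted p = 0.0938).

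Levels between classes were compared within tumors over all treatments by an exact two-sided sign-flip permutation test, in 40 comparisons with Benjamini-Hochberg adjustment (the smallest p it allows is 0.0078 with 8 tumors). The CPM here are shares of each sum's own UMIs, with no TMM scaling. *Sod2* averaged 240 CPM in monocyte/macrophage-like and 113 CPM in MC38-like cells, and was higher in the former in 8 of 8 tumors. The gap was widest under medium R848-BPD, at 488 and 605 CPM against 136 and 122 CPM, and in saline tumors the values were 107 to 164 CPM against 100.1 to 112 CPM. *Prdx1* was likewise higher in 8 of 8 tumors, at 429 against 231 CPM. *Gclm* (60.6 against 120 CPM), *Gsr* (82.1 against 161 CPM), *Txn1* (479 against 879 CPM) and *Nqo1* (1.12 against 9.79 CPM) were lower in monocyte/macrophage-like cells in 8 of 8 tumors on this scale, with an adjusted p of 0.018 from the exact permutation test for *Gclm*. For *Gclm* the order in medium R848-BPD tumor 2 rests on the scaling, at 149 against 152 CPM here and 158 against 155 CPM after TMM scaling within each class. *Slc7a11* (73.8 against 51.2 CPM) and *Txnrd1* (287 against 313 CPM) did not differ beyond the spread between tumors (exact permutation test, adjusted p = 0.76 and 0.322). *Slc7a11* averaged 1.39 CPM in NK-like cells and 6.94 CPM in T-like cells.

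Macrophage-like cells with UMIs of both *Cd38*, an NAD-consuming ectoenzyme, and *Saa3*, an acute-phase gene, made up 301 of 575 and 240 of 400 macrophage-like cells in the medium R848-BPD tumors and 0 to 7 cells in each other tumor. Within the 2 medium R848-BPD tumors their sums were compared with those of the other macrophage-like cells. 6 of 9 members tested were higher in the double-positive cells, against 2.45% of 9138 genes. The members were chosen with a rise of oxidative stress genes in such cells of these data already known. This count is therefore not independent evidence. Of the 9 members tested, 8 were higher in both tumors, as were 27.9% of all genes. *Sod2* was at 535 against 335 CPM in tumor 1 and 776 against 373 CPM in tumor 2, a log2 difference of 0.85 ± 0.10 (edgeR adjusted p = 1.45e-13). The p-values of this fit come from 2 mice and rest on a spread shared over genes. They reflect counting over cells more than spread between mice. *Gclm* was at 162 against 86.1 CPM and 188 against 147 CPM (0.67 ± 0.14, adjusted p = 8.57e-05). *Prdx1* (0.56 ± 0.09), *Srxn1* (0.47 ± 0.12), *Gsr* (0.46 ± 0.14) and *Txn1* (0.40 ± 0.10) were the other 4. *Gclc* went opposite ways in the 2 tumors, at 52.7 against 39.5 CPM and 74.4 against 110 CPM (-0.03 ± 0.18). The double-positive cells were the deeper ones, with a median of 7249 against 6144.5 UMIs in tumor 1 and 4829.5 against 4290.5 in tumor 2. With the gate set on cells thinned to 1000 UMIs, which left 94 and 100 double-positive cells and put the rest among the others, *Sod2* alone was called (0.74). The log2 differences were then 0.70 for *Gsr*, 0.47 for *Srxn1* and 0.30 for *Txn1*, and 0.09 for *Gclm* and 0.18 for *Prdx1*. *Sod2* was also the 1 member called with DESeq2, whose log2 differences for the other 5 were 0.40 to 0.64.

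**Figure D4:**
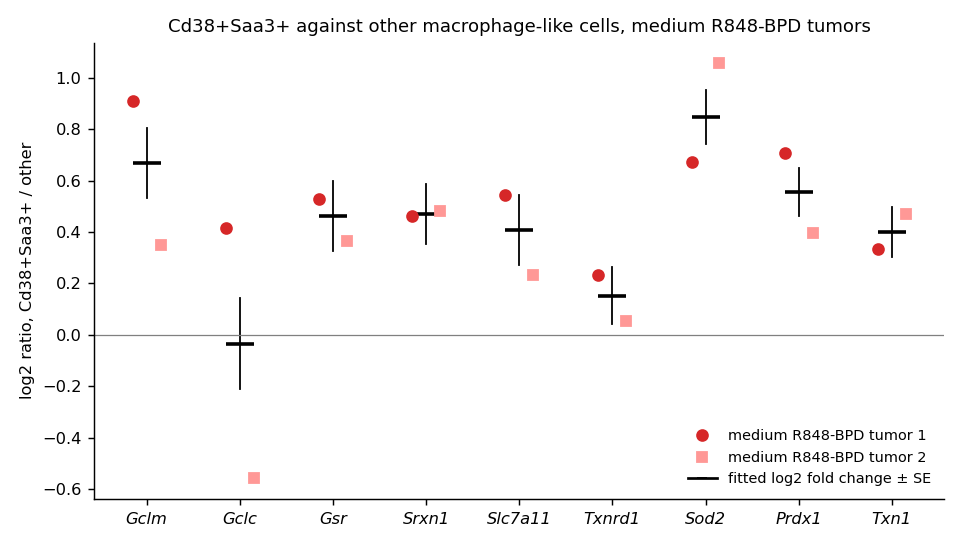
Log2 ratio of each member's CPM in *Cd38*+*Saa3*+ macrophage-like cells to that in the other macrophage-like cells, (y axis) for each of the 2 medium R848-BPD tumors (circles and squares), with the fitted log2 difference and its SE as black bars. *Sod2* and *Gclm* lie above 0 in both tumors, and *Gclc* lies above 0 in tumor 1 and below 0 in tumor 2.

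The wider pathway was followed in monocyte/macrophage-like cells through 4 further lists. Of 17 tested NRF2 targets and NADPH-supplying enzymes, 5 were called higher under medium R848-BPD than under saline and 3 than under free R848, with none lower. These counts stand beside 3.59% and 1.01% of all genes called higher, and the list's median log2 fold changes, 0.60 and 0.61, beside -0.01 for all genes in each contrast. *Hmox1*, the heme-degrading oxygenase, averaged 133, 243 and 780 CPM in saline, free R848 and medium R848-BPD tumors and rose by 2.56 against saline (edgeR adjusted p = 0.0219). *Blvrb*, a biliverdin reductase, averaged 96.6, 146 and 382 CPM and was higher by 1.97 against saline (adjusted p = 0.00536) and 1.38 against free R848 (adjusted p = 0.0426). *Fth1*, the ferritin heavy chain, averaged 8977, 10354 and 20469 CPM (1.19 against saline, adjusted p = 0.0112), and *Esd*, an esterase that acts on a glutathione adduct, 162, 189 and 454 CPM (1.49, adjusted p = 0.0134).

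Of 22 other peroxide, superoxide and thiol enzymes tested, 5 were called higher and 1 lower against saline, and 2 higher against free R848 (median 0.35 and 0.17). Of all genes, 3.59% were called higher and 3.36% lower against saline, and 1.01% higher against free R848. *Mgst1*, a microsomal glutathione transferase, averaged 21.1, 20.8 and 86.8 CPM and was higher by 1.99 against saline (edgeR adjusted p = 0.0184) and 2.03 against free R848 (adjusted p = 0.0405). *Cat*, the catalase gene, averaged 40.0, 32.0 and 61.8 CPM (0.62 and 0.94, adjusted p = 0.0326 and 0.0179). *Glrx*, a glutaredoxin, and *Prdx5*, another peroxiredoxin, were higher by 1.06 and 0.66 against saline (adjusted p = 0.018 and 0.0293).

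Of 9 regulators of the pathway, none was called higher and 2 were called lower against saline, against 3.36% of all genes called lower there. None of the 9 was called against free R848. *Nfe2l2*, which encodes NRF2 itself, averaged 533, 490 and 353 CPM, and its message fell by 0.60 on the log2 scale (edgeR adjusted p = 0.0415). *Maff*, a small MAF partner, averaged 127, 70.3 and 29.3 CPM (-2.13, adjusted p = 0.0313). Of 6 subunits of the phagocyte NADPH oxidase, which makes superoxide, only *Rac2* was called, at 263, 346 and 507 CPM (0.94 against saline, adjusted p = 0.0152). Of all genes 3.59% were called higher against saline, and the list's median was -0.09. No gene of the 4 lists was called between free R848 and saline in this class. In MC38-like cells 3 and 4 of the 9 regulators were called higher against saline and free R848, beside 1.69% and 1.5% of all genes. Calls in this class were not stable, since with classes from clusters the genes called fell from 413 to 129 and from 266 to 38.

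The genes most like each member were found by Pearson's r of log2 CPM over the 39 sums per tumor and class, among 6976 genes. The sums share tumors, classes and depth, and r is a description only. *Sod2* ran with *Prdx1* and *Mpp1* (0.88 each), and *Prdx1* with *Mpp1* and *Atp6v1a*, a proton pump subunit (0.89 each). *Slc7a11* ran with *Cd63* and *Dstn* (0.90 each), and *Txnrd1* with *Slc7a11* (0.85) and *Ctsz* (0.84). *Gsr* ran with *Ctsl* (0.80) and *Gclm* (0.79), *Gclm* with *Camsap2* and *Stau1* (0.84 each), and *Srxn1* with *Szrd1* (0.88) and *Zeb2* (0.86). *Gclc* and *Txn1* had no gene above 0.7, with *Dnttip1* (0.65) and *Psmb7* (0.61) for the former and *Psmd7* (0.69) and *Fam104a* (0.66) for the latter. The pair of highest values for *Nqo1*, at 0 UMIs in most of the lymphoid sums, is not given.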

How the data were processed

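Tumor cells of 8 mice were sequenced by Seq-Well, and the authors deposited 1 table of raw UMI counts per gene and barcode for each tumor, aligned to mm10. The aligner settings and the runs are not given in the sources used here. Following the limits in the study's methods, a barcode counted as a cell with over 400 and below 10000 genes, UMIs below 50000 and a mitochondrial share not above 15%. Each cell was gated on marker lists: its counts per 10000 were divided by the 95th percentile of the positive cells, capped at 1 and averaged per class. A cell joined a class with a score of at least 0.08 and a second score at most 0.5 times as high. The gate gave 8422 cells, left out 1156 with mixed markers and 308 with too few, had 1109 cells near a cut, and matched the class of named clusters (24 of 27, Scanpy 1.11.5) for 98.1% of 8207 cells. Its thresholds were set after the data were seen. Scrublet marked 127 cells (1.28%) at a score of 0.25, and these were left out only in an alternative.

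UMIs were summed per tumor and class (at least 10 cells) and tested with edgeR 4.0.16 (R 4.3.3; quasi-likelihood, TMM, filterByExpr, all 3 treatments in 1 fit, Benjamini-Hochberg 0.05), with the tumor as replicate. The sums held 99040 to 6657870 UMIs, and depth covers counting error only. In data simulated from these sums with 200 changed genes per class, a log2 change of 2 was recovered for 75.5% to 95.1% of them. Alternatives were DESeq2 1.42.0, other scaling (RLE), no filter on low counts, the compared groups alone, classes from clusters, doublets or shared barcodes left out, a block on the labels' replicate number, and each tumor left out. The members, lists and tests were chosen with earlier results of these data known, among them a rise of oxidative stress genes in *Cd38*+*Saa3*+ macrophages, so that none of these is independent evidence. Further genes were named from 4 fixed lists where called in monocyte/macrophage-like cells between medium R848-BPD and another group, at most 4 a list by smallest adjusted p, and, for each member, as the 2 genes with the highest correlation (not printed for *Nqo1*).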

Additional observations from a re-analysis of the deposited data

Results flagged for a closer look

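The following differences between cell classes in the response to medium R848-BPD passed a test of the difference itself (edgeR, adjusted over all genes), and each is given on the log2 scale. Over free R848, monocyte/macrophage-like cells responded more than MC38-like cells by 1.53 for *Gclc*, 1.51 for *Gclm* and 1.74 for *Sod2*. *Gclm* and *Sod2* passed in all 9 alternative analyses of this term and *Gclc* in 6. Over free R848 they responded more than DC-like cells by 2.13 for *Gclc*, which passed in 4 of 8 alternatives, and by 2.72 for *Slc7a11*, which passed in all 8. *Gclc* did not pass the filter on low counts in DC-like cells alone, with 3 to 17 UMIs per free R848 tumor. Compared with NK-like cells the excess was 1.92 for *Sod2*, called in all 9 alternatives. *Gsr* differed within the myeloid cells, where macrophage-like cells responded more than monocyte-like cells by 1.49 over free R848 and by 2.52 over saline. No treatment group had more than 3 tumors, so no single tumor was tested for standing apart.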

How the results depend on the processing

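No member that was called changed its direction under any alternative run. Of 492 values for 38 single results of members, 372 kept their side of the threshold, 95 lost their call and 25 gained one, and the causes were not tested unless the setting itself shows it. In monocyte/macrophage-like cells, 7 members were called for medium R848-BPD against saline (738 genes). The count was 2 with only those groups in the fit (170 genes), and no filter on low counts called 1774 genes. Against free R848, where 4 members and 177 genes were called, DESeq2 called 7 (349 genes), no filter 9 (927 genes) and only the compared groups 8 (418 genes). For free R848 against saline, no filter called 1 member, *Slc7a11*, and 555 genes against 1. In MC38-like cells, the 4 members called against saline became 2 with DESeq2, 1 with only the compared groups and 0 with classes from clusters (129 genes against 413). The 1 member against free R848 became 2 with DESeq2, 3 with no filter (676 genes against 266) and 0 with classes from clusters (38 genes). In DC-like cells, classes from clusters called 1 member, *Sod2*, against saline (366 genes against 778) and 1 against free R848. For *Cd38*+*Saa3*+ cells the 6 members became 1 under the gate on thinned cells (44 genes against 370) and 1 with DESeq2 (38 genes).

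Leaving out 1 tumor at a time, members called in monocyte/macrophage-like cells ranged from 2 to 7 against saline and 1 to 8 against free R848. They were 3 against saline without saline tumor 1, free R848 tumor 1 or free R848 tumor 3. Against free R848 they were 2 without any 1 of the free R848 tumors. In all the runs of this paragraph the number of all genes called varied as well, so the member counts are not to be read alone. In MC38-like cells they ranged from 0 to 4 and 0 to 2, with 1, 2 and 1 against saline without saline tumor 1, 2 and 3, and 0 against free R848 without free R848 tumor 1. In DC-like cells they ranged from 0 to 1 for free R848 against saline, the 1 without free R848 tumor 2. The class-by-treatment term held 2 to 8 members for MC38-like (8 without saline tumor 2), 1 to 3 for DC-like, 1 to 3 for NK-like and 0 to 1 for T-like cells.

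The replicate numbers of the labels did not pair the tumors: same-number correlations of deviations were -0.23 to 0.23 in monocyte/macrophage-like and -0.12 to 0.11 in MC38-like cells, over 0.1 in 1 of 7 pairs each. With the replicate block, 4 members were called in monocyte/macrophage-like cells against saline (355 genes) and 2 against free R848 (35 genes).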
